A study of Mus musculus with 96 samples.

Results

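Ppp1r1b, Pde10a, Pde1b, Rgs9, Penk, Arpp21, Adora2a, Drd1 and Drd2 are known as marker genes of the striatum that fall there in Huntington disease and its mouse models, and here they were measured in the cerebellum. The 9 genes were chosen by name and matched to the Ensembl identifiers of the deposited tables, where all 9 had a row among 39179 genes. All 9 were above 0 in every one of 96 cerebellum libraries. Rgs9 was the only one of them called in a comparison of CAG lengths. It was higher in Q140 than in Q20 mice at 10 months, by a log2 difference of 0.50 ± 0.12 (q = 0.0110). That comparison called 1.99% of all genes, and the Rgs9 call held in 7 of 8 alternative fits. Against the wild types of that age Rgs9 in Q140 was not called (0.25, q = 0.551), nor was its CAG trend (q = 0.0829). The other 8 genes were not called in any comparison of genotypes, in edgeR's test over all genes.

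The series profiled messenger RNA from cerebellum of C57BL/6 mice to relate gene expression to the repeat length of Htt, the Huntington disease gene. Knock-in mice were heterozygous, with 1 Htt allele carrying nominally 20, 50, 92 or 140 CAG (Q20, Q50, Q92 and Q140) beside a normal allele. Wild types had shared cages with Q20 mice or with Q50 mice, and wild types from cages of Q92 or Q140 were not analysed here. Each of these 6 groups held 8 libraries at 6 months and 8 at 10 months, 4 from females and 4 from males. The labels tie wild types to the cages of Q20 and Q50 alone, so between knock-ins repeat length and cage cannot be told apart. Separate animals are not stated for the libraries, so p-values may measure technical spread. Age ran with the numbering of the libraries and cannot be told apart from it.

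These genes belong to 1 signalling system of the medium spiny neuron, the projection neuron of the striatum. Dopamine D1 and adenosine receptors of the Adora2a type raise cyclic AMP and the D2 receptor lowers it, phosphodiesterases break it down, and protein kinase A carries its signal to targets such as DARPP-32. Neurons of the direct pathway carry D1, and those of the indirect pathway carry D2 and the adenosine receptor and the peptide enkephalin.

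Expression is given as FPKM, fragments per kilobase scaled to depth, to compare genes with each other, and as CPM, depth-scaled counts with TMM factors, to compare 1 gene between libraries. A difference is a log2 difference ± its standard error (SE), group levels are means ± SD with 8 libraries, and q is the Benjamini-Hochberg adjusted p of edgeR's quasi-likelihood test over all genes tested. A gene was called at q under 0.05. Library totals lay between 29957797 and 39477325 estimated counts. Summed markers of granule neurons lay between 2711 and 6252 CPM and those of Purkinje cells between 5638 and 13393 CPM, so the defining cells of the cerebellum were present in every library. Of the forebrain genes, Six3 was at 0 counts in 63 of 96 libraries, Dlx2 in 83 and Dlx5 in 88. At 6 months 11 libraries lay far out on the first principal component of their age: 4 of the 8 Q20, 2 of Q50, 1 of Q140, none of Q92 and 2 of each wild-type group. At 10 months 1 library did, Q92 female 2.

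Upstream sequence is shown for 3 of the 9 genes: Rgs9, the gene that was called, and Pde1b and Drd2, which were high in the same libraries. Each window runs from 250 bases before to 50 bases after the start of a RefSeq transcript (GRCm38.p6), on the strand of the gene, 5′ to 3′. Capitals mark matches to the GC box, GGGCGG on either strand, the element read by Sp1-type factors.
Rgs9, chr11:109298132-109298431, minus strand: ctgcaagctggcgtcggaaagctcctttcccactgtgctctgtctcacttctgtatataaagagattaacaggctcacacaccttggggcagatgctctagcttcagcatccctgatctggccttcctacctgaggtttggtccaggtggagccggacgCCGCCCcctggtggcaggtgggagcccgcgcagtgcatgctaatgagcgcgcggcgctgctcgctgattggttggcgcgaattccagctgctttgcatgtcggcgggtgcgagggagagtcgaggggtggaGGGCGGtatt
Pde1b, chr15:103502784-103503083, plus strand: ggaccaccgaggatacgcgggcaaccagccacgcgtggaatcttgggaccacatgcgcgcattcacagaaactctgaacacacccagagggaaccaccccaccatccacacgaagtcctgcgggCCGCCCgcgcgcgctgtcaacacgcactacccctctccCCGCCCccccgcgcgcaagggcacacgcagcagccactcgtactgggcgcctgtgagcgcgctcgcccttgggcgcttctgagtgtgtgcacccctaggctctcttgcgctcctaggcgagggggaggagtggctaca
Drd2, chr9:49340153-49340452, plus strand: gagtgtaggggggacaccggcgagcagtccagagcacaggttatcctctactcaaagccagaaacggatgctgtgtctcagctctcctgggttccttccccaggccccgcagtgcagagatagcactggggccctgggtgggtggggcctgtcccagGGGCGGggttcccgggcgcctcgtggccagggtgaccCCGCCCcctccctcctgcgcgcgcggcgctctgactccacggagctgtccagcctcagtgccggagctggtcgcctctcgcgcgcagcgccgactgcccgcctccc
The Pde1b window is the first of 3 for that gene in the RefSeq table; the other 2 held no GC box and 1 of them held TATAAA. Each of the 3 windows shown held 2 GC box matches, which 35.7% of 32851 RefSeq promoter windows hold at least once. The Rgs9 window also held 1 match to TATAAA, found in 13.6% of windows and left in lower case. None of the 3 held TGACGTCA, the cyclic AMP response element, which 1.79% of windows hold, or its shorter form TGACG, which 20.8% hold. The share of windows with 2 GC box matches was not counted. Windows were found for 6 of the 9 genes. Of the genes not shown, Drd1 and Pde10a held 1 GC box match in each of their windows, and the Arpp21 windows held none.

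In FPKM the 9 genes spanned a wide range. Ppp1r1b was highest with a mean of 80.3 FPKM and lay at the 97.5th percentile of the genes above 0. Penk followed at 62.9, Arpp21 at 34.4 and Pde10a at 17.7 FPKM. Pde1b averaged 7.99 and Rgs9 2.06 FPKM. The 3 receptors were lowest, Adora2a at 0.690, Drd2 at 0.309 and Drd1 at 0.0989 FPKM, the last at the 38.9th percentile. The enzymes, the peptide and the kinase targets of this system thus stood at moderate to high levels in cerebellum beside low receptor transcripts.

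Neighbours in this order were compared within libraries. Ppp1r1b was above Penk in 89 of 96 libraries, and their ranges overlapped. Penk was above Arpp21, Pde1b above Rgs9 and Rgs9 above Adora2a in all 96 libraries with no overlap of their ranges. Arpp21 exceeded Pde10a in all 96 and Pde10a exceeded Pde1b in 94, with overlapping ranges. Adora2a was above Drd2 in 93 and Drd2 above Drd1 in 92 libraries, again with overlap.

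**Figure D1:**
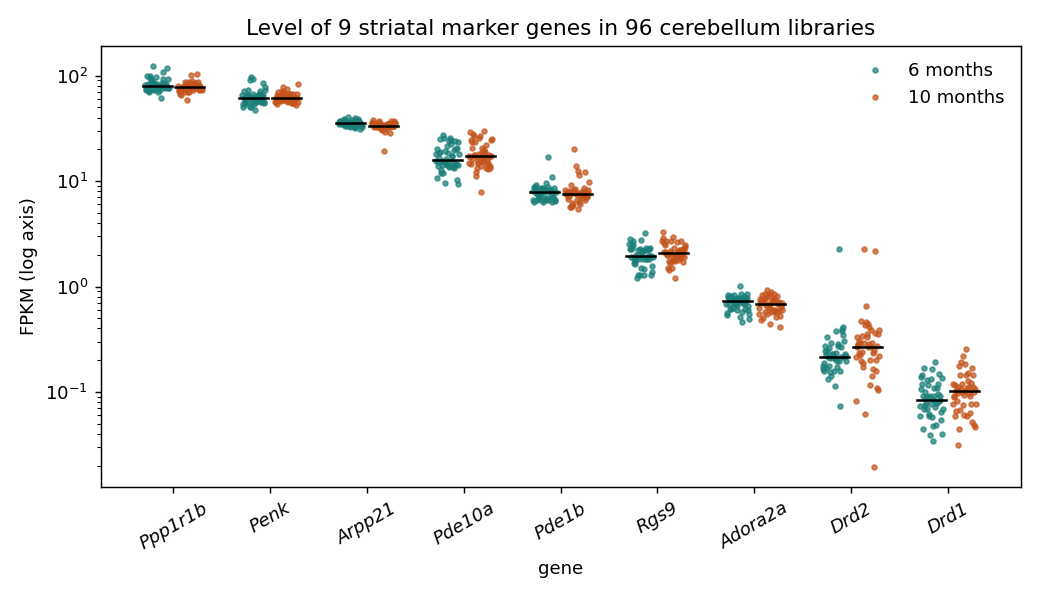
FPKM (log axis) of the 9 striatal marker genes in 96 cerebellum libraries, with 48 points per gene and age and a bar at the median. Means fall from 80.3 FPKM for Ppp1r1b to 0.0989 for Drd1, and 3 libraries stand high for Drd2.

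Counts behind the receptors were small. Drd1 had 4 to 31 estimated counts per library and at least 10 in 61 of 96. Drd2 had 1 to 124 counts, at least 10 in 73 libraries and more than 3 in 94. Adora2a had 37 to 86 counts and Rgs9 89 to 257. Pde1b had at least 553, and the other 4 genes at least 1945 counts in every library. All 9 passed the filter on low counts and were tested in all 20 comparisons.

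Members called were counted in each comparison and set beside the share of all genes called. Against Q20 at 10 months, Q140 had 1 of the 9 called, Rgs9, higher (1.99% of 17026 genes called, 339 genes). At 6 months 0 of 9 were called in the same comparison (0.164%), with 2 of 9 at an unadjusted p under 0.05. The trend over CAG length in 32 knock-in libraries called 0 of 9 at 6 months (0.406%, 2 at unadjusted p) and 0 of 9 at 10 months (1.16%, 1 at unadjusted p). DESeq2 called 1, Rgs9, in each of these 2 trends. Against all 16 wild types Q140 had 0 of 9 called at 6 months (0.234%) and 0 at 10 months (0.452%), with 2 at an unadjusted p under 0.05 at each age and 0 in DESeq2. The median log2 difference of the 9 genes in Q140 against Q20 was −0.08 at 6 months (−0.01 over all genes) and 0.00 at 10 months (0.00 over all genes).

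The remaining genotype comparisons called none of the 9 in edgeR. Q92 against Q20 gave 0 at 6 months (0.0117% of genes called, 1 member at an unadjusted p under 0.05) and 0 at 10 months (0.2%, 2). Q50 against Q20 gave 0 at 6 months (0.0117%, 1) and 0 at 10 months (0.164%, 3), where DESeq2 called 1, Pde1b. Q20 against wild types of its own cages gave 0 at both ages (0.0117% at each, 2 and 1 at unadjusted p). Q50 against its own wild types gave 0 at 6 months (0.0117%, 0 at unadjusted p) and 0 at 10 months (0.0529%, 0). The 2 sets of wild types did not differ in any called member, with 0 at 6 months (0.0935%, 2) and 0 at 10 months (0.2%, 2). DESeq2 gave 0 in each of these but the 1 named. Q50, Q92 and Q140 were set against the same Q20 libraries, so these differences share their control.

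Between the sexes 0 of 9 were called at 6 months (0.876% of genes, 1 at an unadjusted p under 0.05, 0 in DESeq2). At 10 months 0 were called (5.87%, 3 at unadjusted p), and DESeq2 called 1, Penk. Arpp21 was the 1 member called between the ages, lower at 10 months, where 41.3% of 17384 genes were called. The difference between Q140 and Q20 was not called to change with age for any of the 9 or for any gene tested (0%). There 897 genes, none of them among the 9, had an unadjusted p under 0.05, and DESeq2 called 2 genes, none of the 9.

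Rgs9 encodes a regulator of G-protein signalling that speeds the shut-off of inhibitory G proteins below the dopamine D2 and opioid receptors (ENSMUSG00000020599, chr11:109225355-109298129, minus strand in GENCODE M21, GRCm38, with no overlapping gene). The counts join its splice forms, of which one is known from retina and one from striatum. At 6 months Rgs9 averaged 4.96 ± 1.47 CPM in wild types of Q20 cages and 4.33 ± 0.745 in those of Q50 cages. Knock-in means of that age were 4.11 ± 0.986 CPM (Q20), 4.27 ± 1.09 (Q50), 4.81 ± 1.11 (Q92) and 5.75 ± 0.908 (Q140). At 10 months Rgs9 averaged 4.9996 ± 0.491 CPM in wild types of Q20 cages and 5.35 ± 0.648 in those of Q50 cages. Knock-in means of that age were 4.36 ± 0.679 CPM (Q20), 5.12 ± 1.20 (Q50), 4.80 ± 0.947 (Q92) and 6.18 ± 0.805 (Q140). At both ages Q140 was the highest of the 6 groups and Q20 the lowest. The wild types lay between them.

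In the 8 Q20 libraries of 10 months the lowest, median and highest Rgs9 levels were 3.26, 4.42 and 5.08 CPM, and in Q140 5.10, 6.30 and 7.44 CPM. The groups did not overlap. In this comparison 1.99% of all genes were called, and the share of all genes without overlap was not counted. Female Q20 libraries had 5.004, 4.95, 4.78 and 5.08 CPM and male ones 3.85, 4.07, 3.26 and 3.90. Female Q140 libraries had 6.58, 7.44, 6.78 and 6.19 CPM and male ones 5.10, 5.16, 5.77 and 6.40. All 8 Q140 libraries thus lay above the highest Q20 library, the lowest of them at 5.10 against 5.08 CPM. The log2 difference was 0.50 ± 0.12 (95% interval 0.27 to 0.74, q = 0.0110), a 1.42-fold level, with 0.44 in females and 0.56 in males. In bulk tissue more cells of a type and more RNA per cell cannot be told apart.

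At 6 months Rgs9 ranged over 2.34, 4.06 and 5.70 CPM (lowest, median, highest) in Q20 and 3.86, 5.83 and 6.94 in Q140, and these groups overlapped. The log2 difference was 0.50 ± 0.17 (95% interval 0.16 to 0.84, q = 0.146), of the same size as at 10 months with a wider spread, and it was not called. It was 0.33 ± 0.14 (q = 0.383) without the 11 libraries far out at that age, and 0.57 ± 0.17 (q = 0.0446) without Q140 female 4 alone, 1 of those 11. Q92 minus Q20 at that age stood at 0.23 ± 0.17 (95% interval −0.11 to 0.58, q = 0.366), and at −0.02 ± 0.14 (q = 0.999) without the 11. Over the knock-ins the Rgs9 slopes on CAG length were positive, with slopes per 100 CAG of 0.42 ± 0.12 (95% interval 0.17 to 0.68, q = 0.0903) at 6 months and 0.36 ± 0.10 (95% interval 0.15 to 0.56, q = 0.0829) at 10 months, neither called. At 6 months the slope was 0.30 ± 0.10 (q = 0.239) without the 11 libraries and 0.25 ± 0.13 (q = 0.317) with the L number, a part of each library's name, as a factor. The 6-month trend was called without Q140 female 4 (0.48, q = 0.0168) or without Q20 female 1 (0.47, q = 0.0461). The 10-month trend was called without Q50 male 2 (0.39, q = 0.0199) or without Q92 female 2 (0.38, q = 0.0114).

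Against the 16 wild types of its age Rgs9 in Q140 stood at 0.32 ± 0.15 (95% interval 0.03 to 0.62, q = 0.444) at 6 months and 0.25 ± 0.10 (95% interval 0.05 to 0.45, q = 0.551) at 10 months, and neither passed. Q20 minus its own wild types stood at −0.27 ± 0.17 (95% interval −0.62 to 0.07, q = 0.802) and −0.21 ± 0.12 (95% interval −0.44 to 0.03, q = 0.631), not called either. Q140 thus stood above and Q20 below the wild types in sign at both ages. With the L number as a factor the difference from the wild types was 0.18 ± 0.13 (q = 0.940) at 6 months and 0.10 ± 0.12 (q = 1) at 10 months. In that fit the difference between Q140 and Q20 at 10 months was 0.38 ± 0.13 and its call was lost (q = 0.254). There Q140 female 2, alone with its L number, drops out. The 10-month call held without any single one of the 48 libraries, with q from 0.00250 to 0.0370. The difference between Q140 and Q20 did not change between the ages by more than its error, 0.01 ± 0.21 (95% interval −0.41 to 0.42, q = 0.993).

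Measures of the libraries moved with Rgs9. Over 96 libraries, with the mean of each group of 4 removed, Rgs9 had r = −0.43 with the mitochondrial share of counts (rho −0.30) and −0.53 (rho −0.51) with the 7 Bergmann glia and astrocyte markers. The mitochondrial share at 10 months was 6.83 ± 0.239% in Q20 and 6.70 ± 0.201% in Q140. The 7 glial markers summed to 1973 to 2287 CPM in Q20 and 2033 to 2161 CPM in Q140, which overlapped. Oligodendrocyte markers, 9 genes, summed to 4369 to 6552 CPM in Q20 and 2900 to 4169 CPM in Q140 without overlap, and 5 of the 9 fell. Their part in the Rgs9 result was not tested. At 6 months 2 of these 9 were called lower in Q140 than in Q20, and 9 choroid plexus markers had a median difference of −2.42 with none called in edgeR. Rgs9 itself had r = −0.15 with the oligodendrocyte markers.

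**Figure D2:**
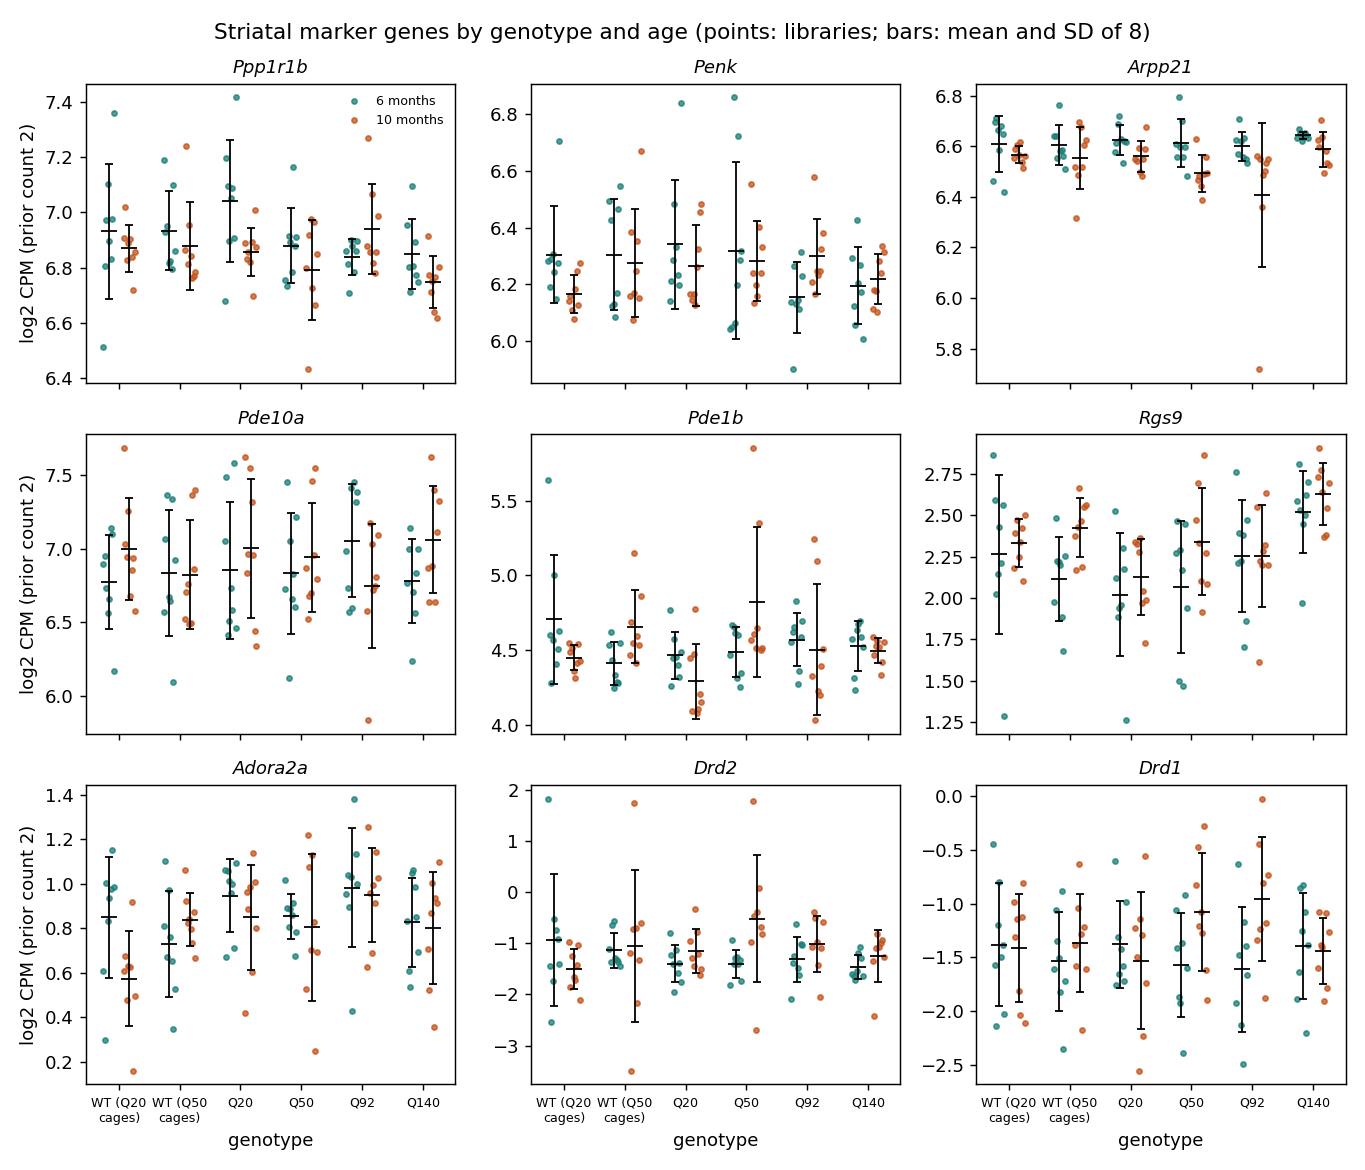
Log2 CPM (prior count 2) of each gene by genotype, at 6 and 10 months; points are libraries and bars the mean and SD of 8. In Rgs9 the Q140 libraries of 10 months lie above those of Q20 without overlap; single libraries stand apart in Pde1b, Drd2 and Arpp21.

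**Figure D3:**
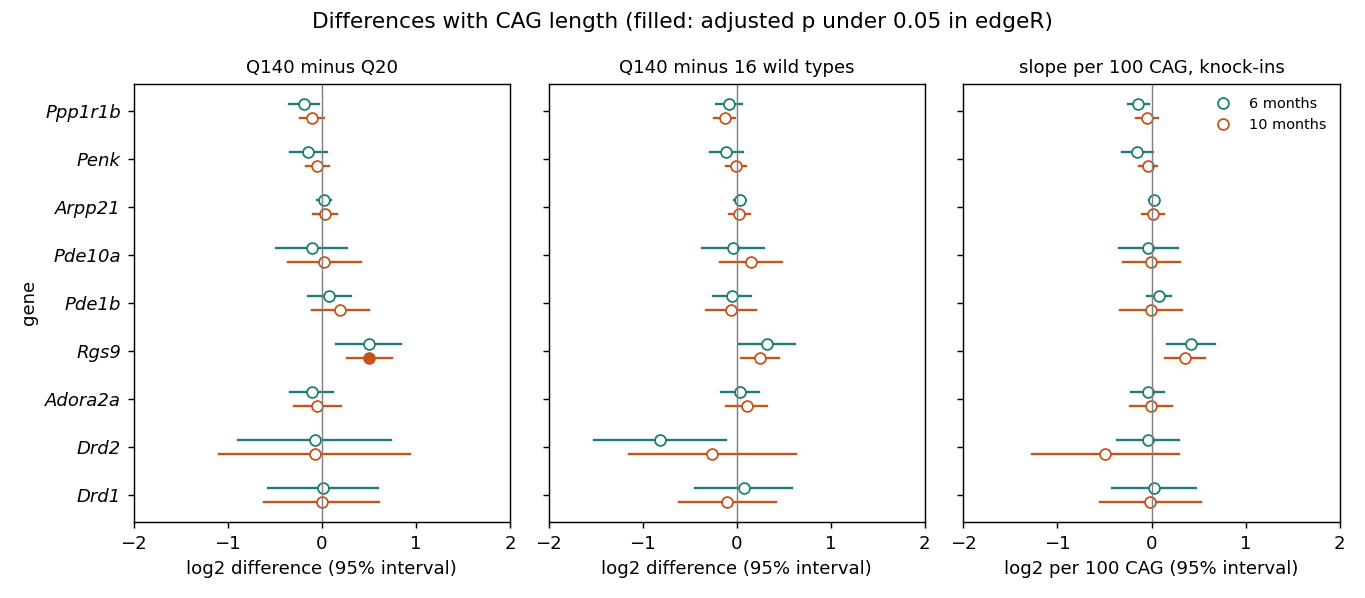
Log2 differences of the 9 genes with 95% intervals for Q140 minus Q20, Q140 minus the 16 wild types and the slope per 100 CAG in knock-ins, at 6 and 10 months. Rgs9 in Q140 minus Q20 at 10 months (0.50) is the only filled, called point; receptor intervals are the widest.

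Partners of Rgs9 were read from a list of 8 genes of the R7 family of RGS proteins, to which Rgs9 belongs, and of the proteins that bind them. In Q140 against Q20 none of 7 tested at 6 months and none of 8 tested at 10 months was called in edgeR, while 5 of 7 and 7 of 8 were higher in sign. Their medians were 0.12 at both ages, against −0.01 and 0.00 over all genes.

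Drd1, the dopamine receptor of the direct pathway, is a gene of chr13 (ENSMUSG00000021478, chr13:54051183-54055705, minus strand). At 6 months Drd1 averaged 0.354 ± 0.1701 CPM in wild types of Q20 cages, 0.302 ± 0.111 in those of Q50 cages, 0.341 ± 0.126 for Q20, 0.295 ± 0.113 for Q50, 0.293 ± 0.146 for Q92 and 0.342 ± 0.127 for Q140. Ordered alike, the Drd1 means at 10 months were 0.336 ± 0.127, 0.347 ± 0.126, 0.318 ± 0.159, 0.446 ± 0.192, 0.495 ± 0.225 and 0.318 ± 0.0772 CPM. The Drd1 difference of Q140 minus Q20 was 0.02 ± 0.29 (95% interval −0.57 to 0.60, q = 0.976) at 6 months and 0.00 ± 0.30 (95% interval −0.61 to 0.61, q = 0.999) at 10 months. These intervals are wide, and a difference within them was not detectable at this depth. Q92 minus Q20 at 10 months stood at 0.62 ± 0.28 (95% interval 0.05 to 1.19, q = 0.268), not called. Single Drd1 libraries ran from 0.112 to 0.926 CPM.

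Drd2, the dopamine receptor of the indirect pathway (ENSMUSG00000032259, chr9:49340627-49408177, plus strand), was set apart by 3 libraries. Wild type female 1 of the Q20 cages at 6 months had 3.49 CPM (124 counts), Q50 female 2 at 10 months 3.38 (122 counts) and wild type female 4 of the Q50 cages at 10 months 3.29 (112 counts). The other 7 libraries of those groups had medians of 0.321, 0.566 and 0.378 CPM, with highest values of 0.639, 1.01 and 0.599 CPM. All 3 libraries lay far above the rest of their group, and 2 of the 3 were wild types.

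At 6 months Drd2 averaged 0.766 ± 1.11 CPM in wild types of Q20 cages, 0.409 ± 0.122 in those of Q50 cages, 0.331 ± 0.0993 for Q20, 0.327 ± 0.0739 for Q50, 0.361 ± 0.127 for Q92 and 0.310 ± 0.0633 for Q140. The corresponding Drd2 means at 10 months were 0.307 ± 0.0998, 0.739 ± 1.05, 0.413 ± 0.156, 0.923 ± 1.03, 0.466 ± 0.177 and 0.383 ± 0.117 CPM. The large SDs belong to the groups with those libraries. Set against Q20, Drd2 in Q140 stood at −0.08 ± 0.40 (95% interval −0.89 to 0.74, q = 0.917) on the log2 scale at 6 months and −0.07 ± 0.50 (95% interval −1.09 to 0.94, q = 0.968) at 10 months. Against the 16 wild types at 6 months Drd2 in Q140 was −0.82 ± 0.35 (95% interval −1.51 to −0.12, q = 0.396), and without wild type female 1 of the Q20 cages −0.33 ± 0.21 (q = 0.631). The slope at 10 months was −0.49 ± 0.38 (95% interval −1.27 to 0.29, q = 0.6996), and −0.19 without Q50 female 2. Against the wild types at 10 months Q140 stood at −0.26 ± 0.44 (95% interval −1.15 to 0.63, q = 0.9998), which turned to 0.17 without wild type female 4 of the Q50 cages. Drd2 in Q50 minus Q20 at 10 months stood at 1.15 ± 0.46 (95% interval 0.21 to 2.08, q = 0.282), and at 0.52 ± 0.45 (q = 0.791) without Q50 female 2.

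Markers of other regions moved with Drd2. The same 3 libraries ranked 1, 2 and 4 of 96 in the summed brainstem and deep nuclei markers, with 163, 152 and 87.0 CPM, against medians of 35.5, 43.4 and 37.6 CPM in the rest of their groups. They ranked 96, 95 and 94 in the telencephalon markers, with 128, 129 and 129.9 summed CPM, and 94, 95 and 88 in the granule neuron markers. Over all 96 libraries Drd2 had r = 0.50 with the brainstem and deep nuclei markers (5 tested genes, Spearman's rho 0.50) and −0.57 with the Purkinje cell markers (rho −0.29), as a description. With the mean log2 level of 6 tested telencephalon markers Drd2 had r = 0.34 (rho 0.38). Without the 3 libraries, a choice made after seeing the data, these coefficients were r = 0.43, −0.41 and 0.26. Their part in the Drd2 levels was not tested. Rgs9 stood at 7.24, 6.40 and 6.29 CPM in these 3 libraries, ranks 2, 10 and 11 of 96.

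Adora2a, the adenosine receptor that couples to stimulatory G proteins (ENSMUSG00000020178, chr10:75316877-75334784, plus strand), was low and even. At 6 months Adora2a averaged 1.77 ± 0.314 CPM in wild types of Q20 cages, 1.62 ± 0.278 in those of Q50 cages, 1.88 ± 0.208 for Q20, 1.75 ± 0.126 for Q50, 1.95 ± 0.351 for Q92 and 1.73 ± 0.244 for Q140. Ordered alike, the Adora2a means at 10 months were 1.45 ± 0.219, 1.74 ± 0.152, 1.77 ± 0.282, 1.73 ± 0.395, 1.89 ± 0.280 and 1.71 ± 0.292 CPM. Q140 differed from Q20 by −0.11 ± 0.11 (95% interval −0.34 to 0.12, q = 0.537) at 6 months and by −0.05 ± 0.12 (95% interval −0.30 to 0.20, q = 0.915) at 10 months. The 10-month wild types of the Q20 cages had the lowest mean, and Q20 minus these stood at 0.28 ± 0.12 (95% interval 0.03 to 0.53, q = 0.531), not called. No tested comparison had groups without overlap.

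Of 6 other genes for dopamine and adenosine receptors 5 were tested, and 0 of 5 were called in Q140 against Q20 or in the trend at either age. Their median was 0.02 at 6 months and −0.14 at 10 months in Q140 against Q20. At 10 months all 5 were lower in sign.

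Penk encodes the precursor of the enkephalin peptides (ENSMUSG00000045573, chr4:4133531-4138819, minus strand), and the noncoding gene A830012C17Rik overlaps it on the other strand, whose reads cannot be told apart where strand is not used. At 6 months Penk averaged 79.5 ± 10.4 CPM in wild types of Q20 cages, 79.7 ± 10.7 in those of Q50 cages, 81.9 ± 14.3 for Q20, 81.5 ± 19.0 for Q50, 71.4 ± 5.97 for Q92 and 73.5 ± 6.99 for Q140. The corresponding Penk means at 10 months were 71.8 ± 3.38, 78.1 ± 11.0, 77.3 ± 7.76, 78.1 ± 7.92, 78.96 ± 7.64 and 74.5 ± 4.59 CPM. The Penk difference of Q140 minus Q20 was −0.14 ± 0.10 (95% interval −0.34 to 0.06, q = 0.339) at 6 months and −0.05 ± 0.06 (95% interval −0.17 to 0.08, q = 0.802) at 10 months. The 6-month slope was −0.15 ± 0.08 (95% interval −0.31 to 0.01, q = 0.206). Without Q20 male 4, which stood high, the 6-month difference was −0.07 ± 0.10 (q = 0.736) and the slope −0.10 ± 0.07 (q = 0.440). Without the 11 libraries far out at that age they were −0.05 ± 0.07 (q = 0.867) and −0.02 ± 0.04 (q = 0.897). Penk in males minus females at 10 months stood at 0.10 ± 0.03 (95% interval 0.03 to 0.17, q = 0.0621), with 20 of 24 male libraries on the higher side. It was called without Q50 female 1, Q50 male 1 or Q92 female 2, and in DESeq2. At 6 months the sexes differed by 0.06 ± 0.06 (95% interval −0.05 to 0.18, q = 0.842).

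The list of other opioid peptides, their processing enzymes and receptors held 9 genes, of which 8 were tested. In Q140 against Q20 0 of 8 were called at either age in edgeR, 4 were higher and 4 lower in sign, and the medians were 0.01 and 0.00.

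Pde10a, which breaks down cyclic AMP and cyclic GMP (ENSMUSG00000023868, chr17:8525372-8986648, plus strand), is overlapped on the other strand by the protein-coding gene Gm17087 and by 2 pseudogenes. At 6 months Pde10a averaged 112 ± 23.0 CPM in wild types of Q20 cages, 118 ± 33.7 in those of Q50 cages, 121 ± 42.5 for Q20, 118 ± 33.0 for Q50, 137 ± 34.7 for Q92 and 112 ± 20.9 for Q140. Ordered alike, the Pde10a means at 10 months were 131 ± 34.8, 117 ± 32.2, 134 ± 43.1, 127 ± 35.4, 111 ± 27.6 and 137 ± 35.3 CPM. Set against Q20, Pde10a in Q140 stood at −0.11 ± 0.19 (95% interval −0.49 to 0.27, q = 0.724) on the log2 scale at 6 months and 0.03 ± 0.19 (95% interval −0.35 to 0.41, q = 0.968) at 10 months. Its libraries were spread 3.60-fold from lowest to highest. The SD within groups of 4 was 0.39 on the log2 CPM scale, higher than in 99.1% of 3409 genes within 1 log2 CPM of its level. In Q20 at 10 months the lowest, median and highest values were 80.9, 125 and 197 CPM, and in Q140 99.6, 128 and 197 CPM. Both groups thus held low and high libraries over nearly the same range.

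Pde1b, a phosphodiesterase switched on by calcium and calmodulin (ENSMUSG00000022489, chr15:103503034-103530052, plus strand), gave 16.8, 18.0 and 27.3 CPM as lowest, median and highest in Q20 at 10 months. It gave 22.6, 23.999 and 57.7 CPM in Q50, 16.3, 20.5 and 37.7 in Q92 and 20.1, 22.9 and 23.98 in Q140. Q20 had the lowest median, and the 8 Q50 libraries all lay above the Q20 mean, while the ranges overlapped. Wild types of 10 months had 19.8, 21.9 and 23.3 CPM in Q20 cages and 21.2, 23.7 and 35.5 in Q50 cages. At 6 months Pde1b averaged 27.2 ± 9.81 CPM in wild types of Q20 cages, 21.3 ± 2.16 in those of Q50 cages, 22.1 ± 2.52 for Q20, 22.5 ± 2.56 for Q50, 23.8 ± 2.90 for Q92 and 23.1 ± 2.58 for Q140. The corresponding Pde1b means at 10 months were 21.8 ± 1.28, 25.5 ± 4.71, 19.8 ± 3.71, 29.9 ± 12.8, 23.6 ± 7.92 and 22.5 ± 1.296 CPM.

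Pde1b in Q50 minus Q20 at 10 months stood at 0.61 ± 0.15 (95% interval 0.30 to 0.91, q = 0.0645), which just missed the threshold. DESeq2 called it, as did edgeR without Q20 female 4, Q50 female 1, Q50 female 4 or Q92 female 2. Without Q50 female 2, the library highest in Pde1b, it was 0.42 ± 0.13 (q = 0.289). Q140 differed from Q20 by 0.08 ± 0.12 (95% interval −0.15 to 0.31, q = 0.656) at 6 months and by 0.20 ± 0.15 (95% interval −0.11 to 0.51, q = 0.612) at 10 months. The slope over CAG length at 10 months was −0.01 ± 0.16 (95% interval −0.34 to 0.32, q = 0.995). Against its own wild types Q50 stood at 0.23 ± 0.15 (95% interval −0.07 to 0.54, q = 0.99998). At 10 months Q50 had the highest median of the knock-ins.

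Pde1b and Drd2 were high in the same libraries. Q50 female 2 had 57.7 CPM of Pde1b, wild type female 1 of the Q20 cages at 6 months 49.7 and wild type female 4 of the Q50 cages at 10 months 35.5, ranks 1, 2 and 5 of 96. Over 96 libraries with group means removed the 2 genes had r = 0.61, and r = 0.38 over the 93 without those 3. Pde1b had r = 0.67 with the brainstem and deep nuclei markers (rho 0.49) and −0.73 with the granule neuron markers (rho −0.72). With the telencephalon markers it had r = 0.53 (rho 0.49). The part of these markers in the Pde1b differences was not tested.

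**Figure D4:**
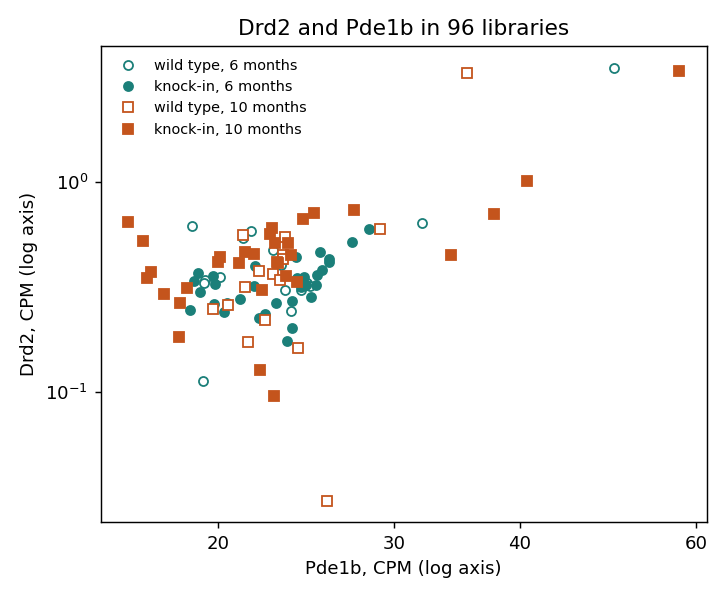
Drd2 against Pde1b in CPM (both log axes) in 96 libraries, wild types open and knock-ins filled. The 3 libraries above 3 CPM of Drd2 include 2 wild types and have 35.5 to 57.7 CPM of Pde1b.

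The list of 22 other phosphodiesterases had 21 in the table. At 10 months 1 of 18 tested was called in Q140 against Q20, Pde3a (1.99% of all genes called). Pde3a, which cuts cyclic AMP and is inhibited by cyclic GMP, stood at 0.50 ± 0.10 (q = 0.00425). It went from 11.8 ± 2.06 to 16.7 ± 1.39 CPM without overlap, and the share of all genes without overlap was not counted. It also rose in the 10-month trend, 0.42 ± 0.09 per 100 CAG (q = 0.0116), and stood at 0.70 ± 0.26 (q = 0.161) at 6 months in Q140 against Q20. Pde8a, a high-affinity cyclic AMP phosphodiesterase, fell by 0.36 ± 0.09 per 100 CAG in the 10-month trend (q = 0.0446) and stood at −0.35 ± 0.12 (q = 0.119) in Q140 against Q20. At 6 months 0 of 17 were called in either comparison in edgeR. The medians in Q140 against Q20 were 0.02 and 0.00. The list moved in no common direction, with 9 of 18 higher and 9 lower in sign at 10 months.

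Ppp1r1b encodes DARPP-32, which inhibits protein phosphatase 1 once protein kinase A has phosphorylated it (ENSMUSG00000061718, chr11:98348404-98357796, plus strand). The gene 1700003D09Rik overlaps it on the other strand. At 6 months Ppp1r1b averaged 124 ± 21.2 CPM in wild types of Q20 cages, 123 ± 12.6 in those of Q50 cages, 133 ± 20.5 for Q20, 118 ± 11.6 for Q50, 114 ± 5.09 for Q92 and 116 ± 10.6 for Q140. Ordered alike, the Ppp1r1b means at 10 months were 117 ± 6.86, 118 ± 14.2, 116 ± 6.99, 111 ± 13.4, 123 ± 14.7 and 108 ± 7.09 CPM. The Ppp1r1b difference of Q140 minus Q20 was −0.19 ± 0.08 (95% interval −0.35 to −0.03, q = 0.181) at 6 months and −0.11 ± 0.06 (95% interval −0.23 to 0.02, q = 0.463) at 10 months. The 6-month slope was −0.14 ± 0.06 (95% interval −0.25 to −0.03, q = 0.135), called without Q140 female 4 (−0.18, q = 0.0258) and in no other fit without 1 library. In 8 other fits by edgeR, DESeq2 or limma the slope ran from −0.15 to −0.06 (adjusted p 0.117 to 0.606), called in none. Against all wild types Q140 stood at −0.09 ± 0.07 (95% interval −0.22 to 0.05, q = 0.720) and −0.13 ± 0.05 (95% interval −0.24 to −0.02, q = 0.625). Ppp1r1b was thus lower in sign in Q140 at both ages, within errors that did not pass.

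Arpp21 encodes a further substrate of protein kinase A that binds RNA (ENSMUSG00000032503, chr9:112065091-112235938, minus strand). The microRNA gene Mir128-2 lies within it on the same strand and 2 noncoding genes on the other. At 6 months Arpp21 averaged 97.8 ± 7.23 CPM in wild types of Q20 cages, 97.4 ± 5.38 in those of Q50 cages, 98.7 ± 3.99 for Q20, 98.0 ± 6.66 for Q50, 97.0 ± 3.91 for Q92 and 99.9 ± 1.05 for Q140. The corresponding Arpp21 means at 10 months were 94.8 ± 2.22, 94.2 ± 7.85, 94.4 ± 4.005, 90.2 ± 4.64, 86.1 ± 14.1 and 96.2 ± 4.59 CPM. Set against Q20, Arpp21 in Q140 stood at 0.03 ± 0.04 (95% interval −0.05 to 0.10, q = 0.632) on the log2 scale at 6 months and 0.03 ± 0.06 (95% interval −0.10 to 0.16, q = 0.884) at 10 months. It was the steadiest of the 9, with an SD within groups of 0.11 on the log2 CPM scale. Q92 female 2 at 10 months stood apart at 52.6 CPM, against 82.0 to 94.3 CPM in the other 7 of its group. That library had the highest mitochondrial share of the 96 (12.7%) and the lowest summed granule neuron markers (2711 CPM). Q92 differed from Q20 at 10 months by −0.13 ± 0.06 (95% interval −0.26 to −0.00, q = 0.295), and by −0.05 ± 0.04 (q = 0.602) without it.

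Arpp21 fell by 0.08 ± 0.02 (95% interval −0.12 to −0.04, q = 0.00287) from 6 to 10 months, a 0.947-fold level, with 40 of the 48 libraries of 10 months below the mean of the 6-month libraries. This comparison called 41.3% of all genes, and age cannot be told apart from the library numbering. Over libraries Arpp21 had r = 0.79 with the granule neuron markers (rho 0.53) and −0.63 with the mitochondrial share (rho −0.17). Without Q92 female 2, a choice made after seeing the data, r was 0.65 and −0.36. Between the ages Rgs9 stood at 0.13 ± 0.06 (95% interval 0.01 to 0.25, q = 0.0655) and Ppp1r1b stood at −0.06 ± 0.03 (95% interval −0.12 to −0.00, q = 0.0820), neither called.

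Relatives of both kinase targets and the phosphatases they act on made a list of 15, of which 0 of 15 were called in Q140 against Q20 at either age in edgeR, with medians of −0.03 at both. Among adenylyl cyclases and subunits of protein kinase A, 0 of 15 were called, with 10 of 15 higher in sign at 6 months and 5 of 15 at 10 months. Over all genes 0.164% were called at 6 months and 1.99% at 10 months in that comparison. With shares this small, 0 of 15 does not set these enzymes apart from other genes.

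A list of 32 other medium spiny neuron genes, 31 of them in the table, was read in the same way. At 6 months 0 of 26 tested were called in Q140 against Q20 (0.164% of all genes called). At 10 months 2 of 27 were called, both higher (1.99% of all genes called). Syndig1l, a synaptic membrane protein related to SynDIG1, rose by 0.63 ± 0.11 (q = 0.000807), from 16.1 ± 3.30 to 24.8 ± 3.23 CPM. Ebf1, a transcription factor of developing striatal neurons, rose by 0.27 ± 0.05 (q = 0.00243), from 68.4 ± 6.24 to 82.4 ± 3.47 CPM, and by 0.21 ± 0.04 per 100 CAG (q = 0.00634). The median of the list was 0.01 at both ages, against −0.01 and 0.00 over all genes, and 14 of 27 were higher in sign at 10 months. No member of this list fell past the threshold in either comparison or trend.

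Genes whose library-to-library pattern was most like each of the 9 were taken by Pearson r over 96 libraries, with the mean of each group of 4 removed, among 16916 genes. Ppp1r1b was nearest to Pcp2, a Purkinje cell protein gene (r = 0.84), to Csad (0.82) and to Erp29 (0.82). With the 10 Purkinje cell markers, Pcp2 among them, Ppp1r1b had r = 0.40 (rho 0.31). With the 7 Bergmann glia and astrocyte markers Ppp1r1b had r = 0.69 (rho 0.65). Pde10a was nearest to Dab1, the adaptor of Reelin signalling (0.79), Cdh18 (0.75) and Slc4a4 (0.73). Pde1b was nearest to Basp1 (0.86), D430019H16Rik (0.86) and Hs3st4 (0.86). Rgs9 was nearest to Chic1, Tro and Gprasp1 (0.78 each), more at 6 months (0.84 to 0.86) than at 10 months (0.57 to 0.61). Penk was nearest to Cbr1, Ndufa8 and Cabp1 (0.84 each).

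Arpp21 was nearest to Epb41 (0.85), Slc25a27 (0.85) and ENSMUSG00000019769 (0.85), with 0.56 to 0.75 at 6 months and 0.88 to 0.93 at 10 months. The receptors had looser neighbours: Adora2a had Shb (0.50), Pmf1 (0.47) and Alpl (0.47), and Drd1 had Scn3b (0.55), Rasgrf2 (0.52) and Cacna1h (0.52). Drd2 was nearest to Zfhx3, Gpc5 and Cobl (0.74 for each). Among the 9 themselves the strongest pairs were Pde1b with Drd2, Ppp1r1b with Rgs9 (−0.57) and Ppp1r1b with Penk (0.54). The coefficients describe these libraries of 1 tissue only.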

How the data were processed

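The labels name cerebellum, total RNA extracted with Qiagen miRNeasy and Illumina protocols, and CASAVA 1.8.2 is given in the submitters' processing notes. For the aligner, quantifier, build, annotation and strand, the sources used here give nothing. The authors deposited a table of expected counts, estimated counts of which 81.64% were whole, and a table of FPKM, for 39179 genes in 96 libraries. Counts were rounded, filtered with filterByExpr (minimum count 10, minimum total 15), scaled by TMM and tested with edgeR 4.0.16 in R 4.3.3. Each age was fitted over its 48 libraries with genotype and sex as terms, leaving 41 residual degrees of freedom, and the CAG trend over knock-ins alone. Log2 CPM used a prior count of 2. Library totals ran from 29957797 to 39477325. Coordinates came from GENCODE M21, matched by Ensembl identifier. The members and lists were chosen with earlier results of these data known. Genes named outside the 9 were list members called in Q140 against Q20 or in the CAG trend, at most 4 per list, and the 3 genes with the highest r to each member. Alternatives used DESeq2 1.42.0 and limma 3.58.1 on log2(FPKM + 0.1) and log2(FPKM + 1). The fits were checked on simulated data.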

Additional observations from a re-analysis of the deposited data

Results flagged for a closer look

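Of 108 sets of 8 libraries (9 genes in 12 groups), 11 held 1 library set apart from the other 7 by a gap that was large against the range of the set. For independent values of a normal distribution, chance alone sets apart about 1 in 20 such sets. These were untransformed CPM and the 9 genes share their libraries, so that rate need not hold here.

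Ppp1r1b was high in Q50 male 2 at 6 months, with 143 CPM against 121 in the next library, and in wild type female 2 of the Q50 cages at 10 months, with 151 CPM against 124. Penk was high in Q20 male 4 at 6 months (114 CPM against 89.5), in wild type male 4 of the Q20 cages at 6 months (104 CPM against 79.04) and in wild type male 4 of the Q50 cages at 10 months (102 CPM against 83.6). Pde1b was high in wild type female 1 of the Q20 cages at 6 months, with 49.7 CPM against 31.95. Arpp21 was low in Q92 female 2 at 10 months, with 52.6 CPM against 82.0.

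Drd2 was high in that same wild type female 1 of the Q20 cages at 6 months (3.49 CPM against 0.639), in Q50 female 2 at 10 months (3.38 CPM against 1.01) and in wild type female 4 of the Q50 cages at 10 months (3.29 CPM against 0.599). It was low in Q140 female 2 at 10 months, with 0.128 CPM against 0.333.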

How the results depend on the processing

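The count of the 9 genes called was the same in 165 of 174 recomputed counts that kept all libraries or left out those far out together. With the L number as a factor the 1 call in Q140 against Q20 at 10 months became 0. DESeq2 gave 1 call in Q50 against Q20 and in males against females at 10 months, and 1 in each CAG trend, where edgeR gave 0. Without Q92 female 2, the library far out at 10 months, 1 gene was called in Q50 against Q20, in males against females and in the CAG trend of that age. Limma on log2(FPKM + 0.1) called 2 genes, Ppp1r1b and Arpp21, between the ages. Leaving out each library in turn gave 0 to 1 calls in Q140 against Q20 at 6 months, in Q50 against Q20, in males against females and in the CAG trend at 10 months, and 0 to 2 in the 6-month trend; the other counts did not move. This was not run for comparisons that span both ages. No result turned from a call in 1 direction to the other. Over all genes, Q140 against Q20 at 10 months called 339 genes, 96 with the L number as a factor, 756 without the far library and 974 with only those arms fitted. With the replicate number as a block within sex, the Rgs9 difference there was 0.51 ± 0.12 (edgeR, q = 0.0174) and 1 member was called. Same-numbered Q140 and Q20 libraries correlated at −0.29 to 0.30, with 3 of 16 pairs over 0.1. Over all 240 same-numbered pairs r ran from −0.48 to 0.74, with 79 over 0.1. These coefficients cannot decide whether the numbers pair libraries, since libraries can be paired without a high r. Depth limits Drd1 and Drd2, whose counts fell as low as 4 and 1.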
